A study of Dunaliella tertiolecta with 6 samples.

Results

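Flavodoxin and ferredoxin are small soluble proteins of the chloroplast stroma that take electrons from photosystem I and hand them to the enzymes that need reducing power. Ferredoxin carries its electron on an iron-sulfur cluster, whereas flavodoxin carries it on a flavin and needs no iron. In many algae and cyanobacteria flavodoxin is known to stand in for ferredoxin when iron is scarce. The genes described here are FLD1, the flavodoxin gene of the green alga Dunaliella tertiolecta, and all 8 genes that the deposited annotation names FDX followed by a number, with or without a copy letter: FDX1A, FDX1B, FDX3, FDX4, FDX6, FDX7, FDX8 and FDX11. The members were matched by gene name, but the family was picked for description with earlier results of these data known. They are 9 of the 14354 genes with a value. All 9 passed the filter on low values and were tested.

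The alga was the wild type of strain UTEX LB 999, a wall-less unicellular species that tolerates high salt, grown as vegetative cells in shaken liquid culture (140 rpm) at 24 °C in constant light and 2 M NaCl. Medium without added iron (0 µM) was compared with medium holding 1.5 µM added iron, in 3 flasks each, so there were 6 libraries of poly(A)-selected RNA. One label gives 2 d of growth and another 3 days. The comparison asks how transcripts respond when no iron is supplied, in cells that all share the same salt, light and temperature.

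Values are FPKM, a measure of reads per length assigned to a gene and per sequencing depth. They are given as mean ± SD over n = 3 libraries. Library totals ran from 808592 to 898151 FPKM without added iron and from 982304 to 1021467 FPKM with it. Reads per library were not used here. Of 11273 genes tested, 11.6% were called higher and 18.7% lower without added iron at a limma adjusted p under 0.05, 30.2% in all, and the 2 levels did not overlap for 47.5%. With the sums set equal the median log2 fold change of all genes moved from -0.03 to 0.17, and 3189 genes were then higher and 1086 lower, in place of 1303 and 2105. FOX1, for a ferroxidase of iron uptake, was between 781 and 934 FPKM in the libraries labelled 0 µM and between 2.22 and 7.54 in those labelled 1.5 µM. Of the markers of sexual cells, HAP2 and GEX1 were at 0.297 FPKM or below in every library, while ZYS3 was between 49.1 and 59.2 FPKM and did not pass the test (limma adjusted p = 0.106), though it did by median-ratio scaling (limma adjusted p = 0.0448) and with equal sums (0.00767). All 12 markers of vegetative algal cells, genes for Rubisco small subunits, antenna proteins and tubulins, were measured, and the lowest of them, TUB1, was between 253 and 290 FPKM. These markers moved with iron in both directions: all 8 genes of antenna proteins and Rubisco fell and 3 tubulin genes rose, at a limma adjusted p under 0.05, while TUB1 did not pass. The counts of markers that fell and rose were 8 and 3 in all 16 alternatives as well. The median log2 fold change of the 12 was -0.71. Their part in the results below was not tested. In bulk RNA a change in level cannot be told apart from a change in how many cells carry the transcript.

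With iron, the transcripts of this family were nearly all ferredoxin, and without it they were nearly all flavodoxin. FLD1 held 0.164% ± 0.0243 (SD, n = 3) of the summed FPKM of the 9 genes at 1.5 µM and 93.4% ± 0.0791 at 0 µM. FDX1A, the most abundant ferredoxin gene, held 78.2% ± 3.39 with iron and 4.13% ± 0.0958 without. FLD1 rose, 6 of the 8 ferredoxin genes fell, and FDX3 and FDX8 did not pass the test. No ferredoxin gene rose.

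**Figure D1:**
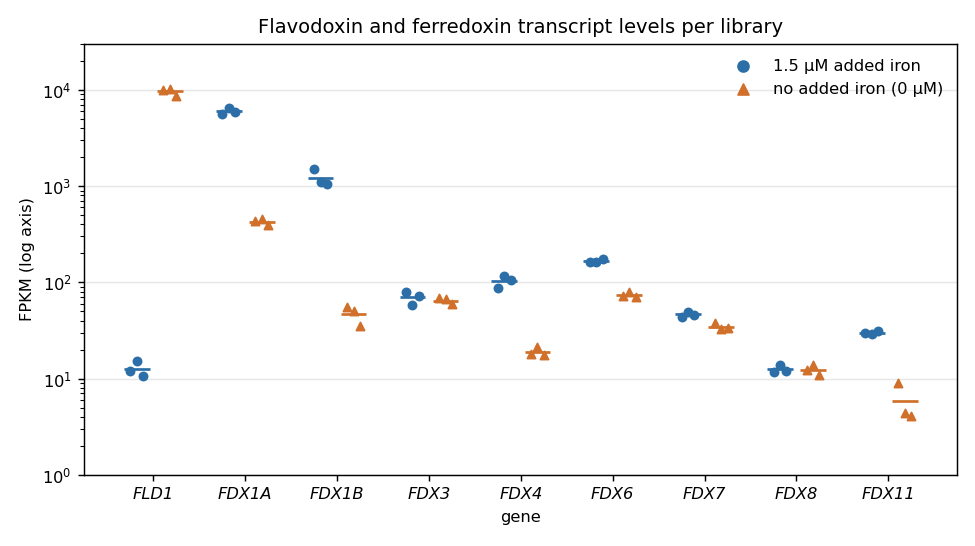
FPKM on a log axis for each of the 9 genes, with 1 point per library (circles, 1.5 µM added iron; triangles, 0 µM) and a line at the mean of 3 libraries. FLD1 goes from place 8 of 9, between 10.5 and 15.3 FPKM and overlapping FDX8, to place 1, between 8692 and 10306, while the points of FDX3 and FDX8 at the 2 iron levels overlap.

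FLD1 encodes the flavodoxin. Its level was 12.0, 15.3 and 10.5 FPKM in replicates 1, 2 and 3 at 1.5 µM, and 10086, 10306 and 8692 FPKM at 0 µM. The libraries of one level lay far beyond those of the other. The means differed 768-fold (12.6 ± 2.46 and 9695 ± 875 FPKM), with a log2 fold change of 9.49 on the log2(FPKM + 1) scale (SE 0.13, limma adjusted p = 2.62e-08). FLD1 was the 6th most abundant of all genes in each of the 3 libraries without added iron. In the libraries with iron it stood between place 4659 and place 6036. By log2 fold change it was the 4th of all tested genes counted from the largest rise.

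FDX1A and FDX1B carry the number of FDX1, which in the green alga Chlamydomonas reinhardtii is the main photosynthetic ferredoxin. FDX1A was at 5604, 6508 and 5886 FPKM in replicates 1, 2 and 3 with iron and at 436, 455 and 394 FPKM without. All 3 libraries without iron were below all 3 with iron, and the mean was 14.0-fold lower (5999 ± 462 to 429 ± 31.2 FPKM; log2 change -3.80, SE 0.08, limma adjusted p = 1.927e-07). Even so, FDX1A remained the most abundant ferredoxin transcript without iron, between place 224 and place 227 among all genes, against places 20 to 25 with iron.

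FDX1B was at 1503, 1107 and 1060 FPKM with iron and at 55.9, 50.8 and 34.9 FPKM without. Its mean was 25.9-fold lower without iron (log2 change -4.68, SE 0.20, limma adjusted p = 4.681e-06), the 4th largest fall of all tested genes, while that of FDX1A was the 10th. The ratio between the copies also differed between the levels. FDX1A was 3.73, 5.88 and 5.55 times as high as FDX1B in replicates 1, 2 and 3 at 1.5 µM and 7.80, 8.96 and 11.3 times as high at 0 µM. The log2 ratio of FDX1B to FDX1A was 0.90 lower on average without iron, and the libraries of the 2 levels did not overlap (exact permutation test, two-sided, p = 0.1, the smallest that 3 against 3 can give without pairing). That test, like the other 3 exact tests of this family of 4, has an adjusted p of 0.1. Within replicate pairs, an alternative added after the data were seen, each of the 4 exact permutation tests gave p = 0.25, the smallest that 3 pairs can give.

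The models of these copies resemble each other. FDX1A (Dte_g10111) lies on scaffold_07 from 625527 to 627062 and FDX1B (Dte_g06556) on scaffold_02 from 3396193 to 3397669, on the authors' own assembly, both on the plus strand. Each has 5 coding exons, of 137, 55, 147, 34 and 23 nt in FDX1A and of 146, 55, 147, 28 and 29 nt in FDX1B. Both thus have an exon of 55 nt followed by one of 147 nt. No other member has this pair of exon lengths. The exons add up to 396 and 405 nt of coding sequence. Whether 50 nt reads can come from either copy was not tested, so the split between them is less certain than their sum. A shift of reads between the copies would alter that sum only through the difference in their lengths. Reads left out for matching both copies would be missing from it. The sum was 7223 ± 349 FPKM with iron and 476 ± 41.0 FPKM without, 15.2-fold lower.

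FDX4, FDX6, FDX7 and FDX11 fell from lower starting levels. FDX4 (Dte_g12523, scaffold_04 from 7055148 to 7057603, plus strand) was at 87.4, 115 and 105 FPKM with iron and at 17.8, 21.3 and 17.6 FPKM without (log2 change -2.38, SE 0.12, limma adjusted p = 1.228e-05). FDX11 (Dte_g01258, scaffold_03 from 15760617 to 15762491, minus strand), the least abundant ferredoxin transcript without iron, was at 29.5, 29.4 and 31.3 FPKM with iron and at 8.89, 4.43 and 4.07 FPKM without (-2.26, SE 0.24, limma adjusted p = 0.0004212). Replicate 1 without iron was higher than replicates 2 and 3, yet well under every library with iron.

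FDX6 (Dte_g05351, scaffold_01 from 8056551 to 8058773, plus strand) was at 164, 162 and 175 FPKM with iron and at 72.2, 79.7 and 70.6 FPKM without, a fall of 1.16 on the log2 scale (SE 0.07, limma adjusted p = 3.155e-05). Its model, of 963 nt, is the longest coding sequence of the family. FDX7 (Dte_g01343, scaffold_03 from 16669476 to 16670986, plus strand) was at 44.1, 49.5 and 45.6 FPKM with iron and at 37.5, 32.8 and 33.2 FPKM without. This is the smallest change called in the family (-0.42, SE 0.08, limma adjusted p = 0.009115). It was no longer called with the FPKM sums set equal (-0.19, limma adjusted p = 0.1265) or with replicates 1 and 2 only (-0.40, limma adjusted p = 0.08686), so that 5 ferredoxin genes fell in those settings.

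FDX3 and FDX8 did not pass. FDX3 (Dte_g13132, scaffold_04 from 16151382 to 16155378, minus strand) was at 79.8, 58.8 and 73.0 FPKM with iron and at 68.2, 66.3 and 59.2 FPKM without, and the levels overlapped. The 95% interval of its log2 fold change ran from -0.40 to 0.17 (limma adjusted p = 0.5015). FDX8 (Dte_g02935, scaffold_12 from 5617637 to 5618709, plus strand) was at 11.6, 13.9 and 12.0 FPKM with iron and at 12.4, 13.7 and 11.0 FPKM without, also overlapping, with an interval from -0.27 to 0.23 (limma adjusted p = 0.9112). These intervals leave out a 2-fold change in either direction on this scale, and the fold changes turned positive with equal sums, to 0.11 for FDX3 and 0.19 for FDX8.

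Read against all genes, 6 of 8 ferredoxin genes were called lower where 18.7% of all tested genes were. The 6 were also those whose libraries did not overlap between the levels, a trait of 47.5% of all tested genes. The median log2 fold change was -1.71 over the 8 ferredoxin genes and -0.03 over all tested genes. The 664 tested genes with 350 to 450 nt of coding sequence, the range of FDX1A, FDX1B, FDX4, FDX7 and FDX11, had a median log2 fold change of 0.05.

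**Figure D2:**
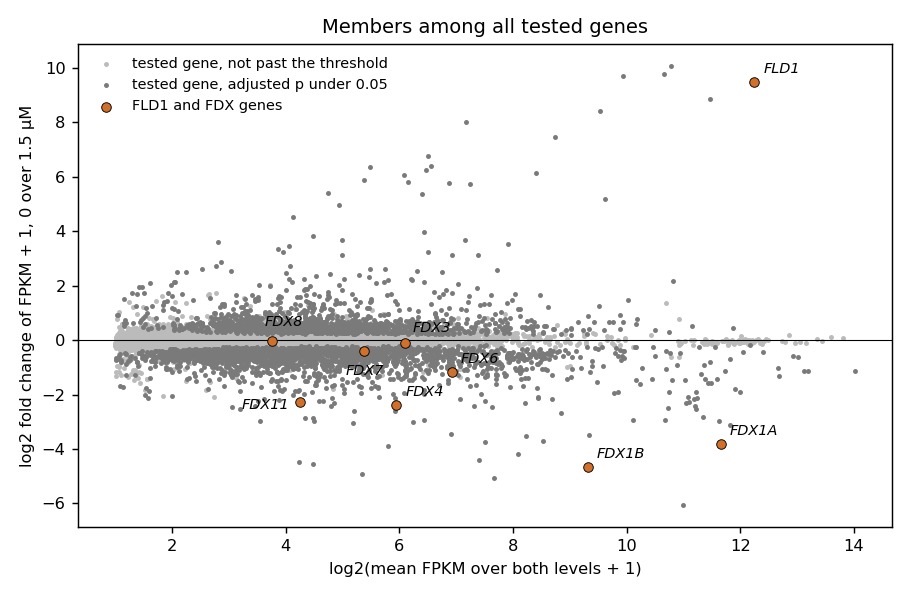
Log2 fold change of FPKM + 1 without over with added iron, against the log2 mean FPKM + 1 of both levels, for all 11273 tested genes (grey, darker where the limma adjusted p is under 0.05) and for the 9 members (orange, named). FLD1 (9.49) lies at the upper edge and FDX1B (-4.68) and FDX1A (-3.80) at the lower edge among abundant genes, while FDX3 and FDX8 lie at the zero line.

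The order of the levels changed with iron. At 1.5 µM it ran FDX1A, FDX1B, FDX6, FDX4, FDX3, FDX7, FDX11, FLD1 and FDX8, and only the last neighbours, FLD1 and FDX8, had overlapping ranges. At 0 µM it ran FLD1, FDX1A, FDX6, FDX3, FDX1B, FDX7, FDX4, FDX8 and FDX11, and only FDX1B and FDX7 overlapped. FDX1B moved from place 2 to place 5 and FDX4 from place 4 to place 7, while FDX6 was in place 3 at both levels.

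Summed over the 9 genes, the level was 7535, 8059 and 7398 FPKM in replicates 1, 2 and 3 with iron and 10795, 11030 and 9317 FPKM without. The sums did not overlap, and their means differed 1.35-fold (7664 ± 349 and 10381 ± 929 FPKM; exact permutation test, two-sided, p = 0.1, the smallest possible without pairing). FLD1 gained 9682 FPKM on average and the ferredoxin genes together lost 6965. Sums, shares and orders across genes rest on the length assigned to each gene, which is not known here. The annotated exons of the 9 genes hold coding sequence only, from 396 nt in FDX1A to 963 nt in FDX6. The 9 genes made up 0.765% ± 0.0204 of all FPKM in a library with iron and 1.21% ± 0.0554 without.

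In proportion to their means, the FLD1 and FDX1A shares were close between the flasks without iron, while other shares varied more. For a gene that makes up most of the sum, such as FLD1, the share can vary little even where its FPKM varies. Without iron the FPKM of FLD1 was 9695 ± 875. FLD1 held 93.4%, 93.4% and 93.3% of the summed FPKM in replicates 1, 2 and 3 without iron and 0.159%, 0.190% and 0.142% with iron. Ferredoxin FPKM summed to 627, 524 and 701 times the FLD1 value with iron, whereas without iron FLD1 was 14.2, 14.2 and 13.9 times the ferredoxin sum. The log2 ratio of FLD1 to summed ferredoxin went from -9.26 ± 0.21 to 3.82 ± 0.02 (exact permutation test, two-sided, p = 0.1, the smallest possible without pairing). FDX1A held 74.4%, 80.8% and 79.6% of the summed FPKM with iron and 4.04%, 4.13% and 4.23% without. FDX1B held 19.9%, 13.7% and 14.3% with iron and 0.518%, 0.461% and 0.375% without. The share of FDX11 without iron was 0.0824%, 0.0401% and 0.0437%.

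The remaining ferredoxin transcripts were also a different mixture without iron. Among the 8 ferredoxin genes alone, FDX1A and FDX1B held 78.4% ± 3.40 and 16.0% ± 3.43 of the FPKM with iron, and 62.5% ± 0.861 and 6.83% ± 1.16 without. The others together were at 429 ± 12.8 FPKM with iron and 210 ± 12.8 FPKM without, a 2.04-fold fall beside the 15.2-fold fall of the FDX1 copies. FDX6 accordingly held 2.19% ± 0.177 of ferredoxin FPKM with iron and 10.8% ± 0.579 without, and FDX3 0.927% ± 0.173 and 9.42% ± 0.238. FDX7 went from 0.607% ± 0.0176 to 5.05% ± 0.444 and FDX8 from 0.164% ± 0.00907 to 1.80% ± 0.0839. FDX4 held 1.34% ± 0.153 with iron and 2.75% ± 0.219 without, and FDX11 0.393% ± 0.0292 and 0.839% ± 0.360. These 6 shares were larger without iron as parts of a smaller sum, while none of the 6 genes had a higher mean FPKM.

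**Figure D3:**
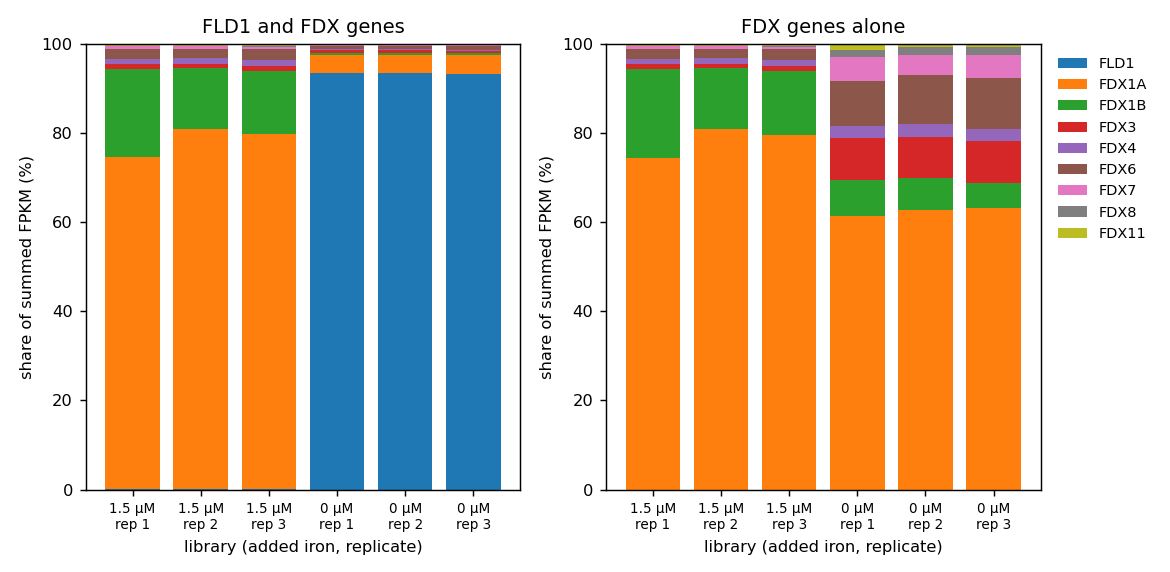
Share in percent of the summed FPKM held by each gene in each of the 6 libraries, with FLD1 included (left) and among the 8 FDX genes alone (right); each bar is 1 library and adds up to the whole. On the left FLD1 fills 93.3% to 93.4% of each bar at 0 µM and under 0.2% at 1.5 µM; on the right FDX3, FDX6, FDX7 and FDX8 take more of each bar at 0 µM.

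The 9 genes are scattered over 6 nuclear scaffolds, and no member lies next to another. FLD1 (Dte_g06273) lies on scaffold_01 from 20668579 to 20671190 on the plus strand, with 9 coding exons and 648 nt of coding sequence. Its neighbours, VPS28 and ATF1, were at 22.5 ± 1.70 and 35.1 ± 1.66 FPKM with iron and 26.2 ± 0.282 and 34.4 ± 2.19 FPKM without, and neither passed (limma adjusted p = 0.07813 and 0.7903). VPS28 passed by median-ratio scaling, with equal sums and without 1.5 µM replicate 2 (limma adjusted p from 0.00697 to 0.0459). The gene on the lower side of FDX1A, Dte_g10110 at 4342 nt distance, rose from 0.817 ± 0.276 to 10.8 ± 0.747 FPKM (log2 change 2.71, limma adjusted p = 9.56e-06), opposite to FDX1A. With iron its mean was below 1 FPKM, so it passed the filter on low values only through the libraries without iron. Neither neighbour of FDX1B passed. Of all tested genes 11.6% rose and 18.7% fell. Of the 18 neighbours of the 9 genes 15 were tested, of which 2 rose, 2 fell and the others did not pass. The other that rose, Dte_g05352 beside FDX6, passed narrowly (0.29, limma adjusted p = 0.04637). It lost the call in 9 of 16 alternatives, among them the replicate block (limma adjusted p = 0.0550) and the removal of any library but 1.5 µM replicate 1 (0.0641 to 0.123). With the block Dte_g12524 beside FDX4 fell (-0.56, limma adjusted p = 0.0155) and ARL4 beside FDX8 rose (0.45, limma adjusted p = 0.0201). In all, ARL4 passed in 3 of 16 alternatives, the smallest limma adjusted p being 0.0061. Dte_g13131 beside FDX3 did not pass (0.06, limma adjusted p = 0.6007), though it did with equal sums (0.29, limma adjusted p = 0.0233).

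FDX3, FDX4, FDX6, FDX7, FDX8 and FDX11, but not FLD1 or the FDX1 copies, lie head to head with a gene on the other strand, with at most 500 nt between the coding starts, a distance chosen after the values were seen. Of all tested nuclear genes 39.0% have such a neighbour. Beside FDX6, Dte_g05350 begins 229 nt away and fell by 0.92 on the log2 scale (limma adjusted p = 0.0004666), as FDX6 fell by 1.16. Beside FDX3, CHLI1, for a subunit of the magnesium chelatase of chlorophyll synthesis, begins 110 nt away and fell from 510 ± 40.7 to 243 ± 13.9 FPKM (-1.07, limma adjusted p = 7.304e-05), while FDX3 did not pass. The partners of the other 4 did not pass. They include Dte_g12522 beside FDX4 (-0.29, limma adjusted p = 0.09318) and Dte_g01259 beside FDX11 (-0.22, limma adjusted p = 0.05818), while FDX4 was at -2.38 and FDX11 at -2.26. Dte_g12522 did pass without 1.5 µM replicate 1 (limma adjusted p = 0.0440) and Dte_g01259 with no filter (0.0468). ARL4 beside FDX8 passed in the 3 alternatives counted above. The sources used here do not say whether counting used the strand; these models do not overlap.

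The tested genes whose 6 values were most like those of FLD1 were found by the root mean square difference of log2(FPKM + 1), centred per gene over the 6 libraries. They were SUTP1 (0.20), Dte_g14165 (0.22), CREG1A (0.31), TIDI1 (0.37) and Dte_g01071 (0.56). All 5 rose by at least 8.41 on the log2 scale. They differ in level: TIDI1, an antenna protein of iron-starved Dunaliella, reached 5620 ± 215 FPKM without iron, CREG1A 3508 ± 320 and SUTP1 1949 ± 131, all under FLD1. For FDX1A the nearest were Dte_g11411 (0.11), CPLD30 (0.16), TEF9 (0.16), FSD1 (0.17), for iron superoxide dismutase, and APSR1 (0.19), with log2 fold changes between -3.88 and -3.46. With 2 conditions, this likeness rests mostly on the size of the change between them.

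Ferredoxin's partners were followed through 12 lists of gene symbols, 1 of which, for hydrogenase and pyruvate-ferredoxin enzymes, matched no gene. The other lists held 45 genes, all tested. Of these 9 rose, 22 fell and 14 did not pass, where 11.6% of all tested genes rose and 18.7% fell. Their median log2 fold change was -0.26. Without RIB43, RIB21 and RIB72, which the symbol list for flavin synthesis took although they are named for flagellar proteins, 8 of 42 rose, 22 fell and 12 did not pass. With the FPKM sums set equal 16 of the 45 rose in place of 9, and 20 fell in place of 22. Over all 11273 tested genes 3189 then rose in place of 1303, and 1086 fell in place of 2105.

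On the donor side, the photosystem I subunits PSAD1 and PSAE1, which form the docking site for ferredoxin and flavodoxin on the stromal face, fell. PSAE1 was at 6290, 6816 and 6194 FPKM in replicates 1, 2 and 3 with iron and at 671, 831 and 723 FPKM without (log2 change -3.12, limma adjusted p = 6.636e-07). PSAD1 fell by 2.81 (limma adjusted p = 4.985e-07). Both log2 fold changes were smaller in size than those of FDX1A and FDX1B, a difference that was not tested. The remaining subunit gene, psaC, is a plastome gene between 1.09 and 9.91 FPKM in poly(A)-selected RNA and did not pass (limma adjusted p = 0.3801), though it did with replicates 1 and 2 only (1.96, limma adjusted p = 0.01425).

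On the acceptor side, FNR1, for the reductase that passes electrons from ferredoxin or flavodoxin to NADP, went from 1748 ± 41.2 to 1156 ± 35.9 FPKM, a fall of 0.60 on the log2 scale (limma adjusted p = 0.0001923). Under quantile normalization it was 0.10 higher instead (limma adjusted p = 0.07839). FNR1 therefore had a higher FPKM than the 8 ferredoxin genes together without iron, whose sum was 686 ± 53.7, but not with iron, when that sum was 7651 ± 346.

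Both subunits of ferredoxin-thioredoxin reductase, the iron-sulfur enzyme that reduces thioredoxins with electrons from ferredoxin, fell. FTRC3 was at 291, 393 and 320 FPKM with iron and at 45.2, 75.0 and 62.0 FPKM without (-2.46, SE 0.19, limma adjusted p = 8.831e-05). FTRV1 was at 222, 314 and 260 FPKM with iron and at 34.2, 60.9 and 55.4 FPKM without (-2.41, SE 0.22, limma adjusted p = 0.0002171). In both genes replicate 1 was the lowest library of its level and replicate 2 the highest.

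The list of thioredoxins and NADPH-dependent reductases is by symbol, and the compartment of its proteins was not checked. The median log2 fold change of its 8 genes, -0.03, turned positive under all 3 scalings, as did that of all tested genes, also -0.03. Beside 11.6% of all tested genes that rose and 18.7% that fell, 2 of the 8 rose and 2 fell. Those that fell were TRXF2 (157 ± 17.0 to 49.3 ± 4.50 FPKM, -1.65, limma adjusted p = 3.297e-05) and TRXZ1 (-1.12, limma adjusted p = 0.0001125). Those that rose were NTRC1, for a reductase fused to a thioredoxin that draws on NADPH in place of ferredoxin, and NTR3, named for an NADPH-thioredoxin reductase. NTRC1 was at 56.9, 50.4 and 47.6 FPKM with iron and at 155, 154 and 153 FPKM without (1.56, limma adjusted p = 1.155e-05). NTR3 went from 74.2 ± 1.53 to 126 ± 2.11 FPKM (0.75, limma adjusted p = 9.718e-05).

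In nitrogen and sulfur assimilation the symbol list for ferredoxin-dependent enzymes took 4 genes. Whether each of them uses ferredoxin in this alga was not checked. Where 18.7% of all tested genes fell, 3 of these 4 did, by similar amounts. They were NII1 for nitrite reductase (586 ± 67.0 to 237 ± 24.4 FPKM, -1.30, limma adjusted p = 0.0001265), SIR1 for sulfite reductase (-1.32, limma adjusted p = 1.682e-05) and GSF1 for ferredoxin-dependent glutamate synthase (-1.31, limma adjusted p = 1.138e-05). SIR3 was at 17.6 ± 1.96 and 14.5 ± 0.974 FPKM and did not pass (limma adjusted p = 0.09307), though it did with the replicate as a block (limma adjusted p = 0.0430) and without 1.5 µM replicate 2 (0.0356).

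Among all tested genes 11.6% rose and 18.7% fell. Of 7 pigment genes linked to ferredoxin 2 rose and 3 fell, with a median of 0.12. The falls were CHL27, for the diiron cyclase of chlorophyll synthesis (1681 ± 50.1 to 604 ± 27.2 FPKM, -1.48, limma adjusted p = 3.948e-06), HCAR1 for hydroxymethyl chlorophyll a reductase (-1.56, limma adjusted p = 7.361e-05) and CAO1 for chlorophyllide a oxygenase (-0.56, limma adjusted p = 0.0003514). HMOX1, for heme oxygenase, which opens heme with electrons from ferredoxin and releases its iron, rose. It was at 183, 164 and 169 FPKM with iron and at 381, 383 and 375 FPKM without (1.14, SE 0.06, limma adjusted p = 1.787e-05). The other that rose, named after its value was seen, was HMOX2B, named for a further heme oxygenase (0.39, limma adjusted p = 0.01484). Its call was lost without 0 µM replicate 2, without 1.5 µM replicate 3 and with replicates 1 and 2 only (limma adjusted p from 0.0570 to 0.1001).

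In the list of lipid and isoprenoid enzymes 7 of 9 fell and 1 rose, beside 18.7% and 11.6% of all tested genes. The median of the 9 was -0.60. Only 5 fell by median-ratio scaling, with equal sums, without 1.5 µM replicate 3 and with replicates 1 and 2 only. The 4 with the smallest p were FAB2 for stearoyl-ACP desaturase (243 ± 12.1 to 103 ± 3.01 FPKM, -1.23, limma adjusted p = 1.355e-05), HDS1 for an iron-sulfur enzyme of plastid isoprenoid synthesis (-1.09, limma adjusted p = 1.605e-05), and the desaturase genes FAD6B (-0.60, limma adjusted p = 0.0003213) and FAD6A (-0.61, limma adjusted p = 0.001112). The gene that rose, likewise named after its value was seen, was CHYB1, named for a carotene hydroxylase, at 27.5 FPKM with iron and 86.4 without on average (1.69, limma adjusted p = 0.003073). It was not called with replicates 1 and 2 only (limma adjusted p = 0.0504). The list is by symbol and also holds FAD2, named for a desaturase that in plants works outside the plastid with cytochrome b5.

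The list for cyclic electron flow around photosystem I took 2 genes by symbol, PGR5 and PGRL1. Further genes of this route were not looked for. Both listed genes rose, where 11.6% of all tested genes did. PGR5 went from 239 ± 10.7 to 395 ± 22.0 FPKM (0.72, limma adjusted p = 0.0002552) and PGRL1 from 317 ± 9.96 to 450 ± 13.7 FPKM (0.50, limma adjusted p = 0.0006932). On the lumen side, PCY1 for plastocyanin, a copper protein, fell by 0.62 (limma adjusted p = 0.001107) but stayed at 6550 ± 486 FPKM. CYC6, for a heme cytochrome that can replace it, was at 204, 694 and 702 FPKM with iron and at 76.5, 193 and 171 FPKM without. It passed narrowly (-1.76, limma adjusted p = 0.04404), and lost the call without any one of the 6 libraries other than 1.5 µM replicate 1, at limma adjusted p from 0.06187 to 0.1254. It was also lost without a filter, under quantile normalization, without the trend and with replicates 1 and 2 only.

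The genes of the mitochondrial ferredoxin system did not pass. MFDX1, for a mitochondrial ferredoxin that works in iron-sulfur cluster assembly, was at 12.1 ± 1.48 and 14.4 ± 3.34 FPKM (95% interval of the log2 change -0.19 to 0.62, limma adjusted p = 0.3785), and its reductase ARH1 at 5.27 ± 0.795 and 4.83 ± 0.382 FPKM (-0.38 to 0.18, limma adjusted p = 0.5584). For the flavin that flavodoxin carries, the symbol list took 5 genes, of which 2 rose, where 11.6% of all tested genes rose. Without RIB43, RIB21 and RIB72, the flagellar ribbon genes set aside once their names had been read, RFK3 and RFK2 remain, named for riboflavin kinase, which makes the flavin cofactor FMN. RFK3 went from 8.09 ± 1.20 to 12.1 ± 0.793 FPKM (0.54, limma adjusted p = 0.01255), a call lost without 0 µM replicate 2 (limma adjusted p = 0.05091) and with replicates 1 and 2 only (0.07088). RFK2 did not pass (-0.21, limma adjusted p = 0.1377). Of the ribbon genes RIB43 passed (0.72, limma adjusted p = 0.03361), a call lost in 6 of 16 alternatives, 4 of which leave out 1 library (limma adjusted p from 0.0633 to 0.183). The other ribbon genes, RIB21 (0.68, limma adjusted p = 0.08321) and RIB72 (0.52, limma adjusted p = 0.06873), did not pass, though both did with the replicate as a block (limma adjusted p = 0.007769 and 0.007293), with equal sums and without 1.5 µM replicate 2.

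**Figure D4:**
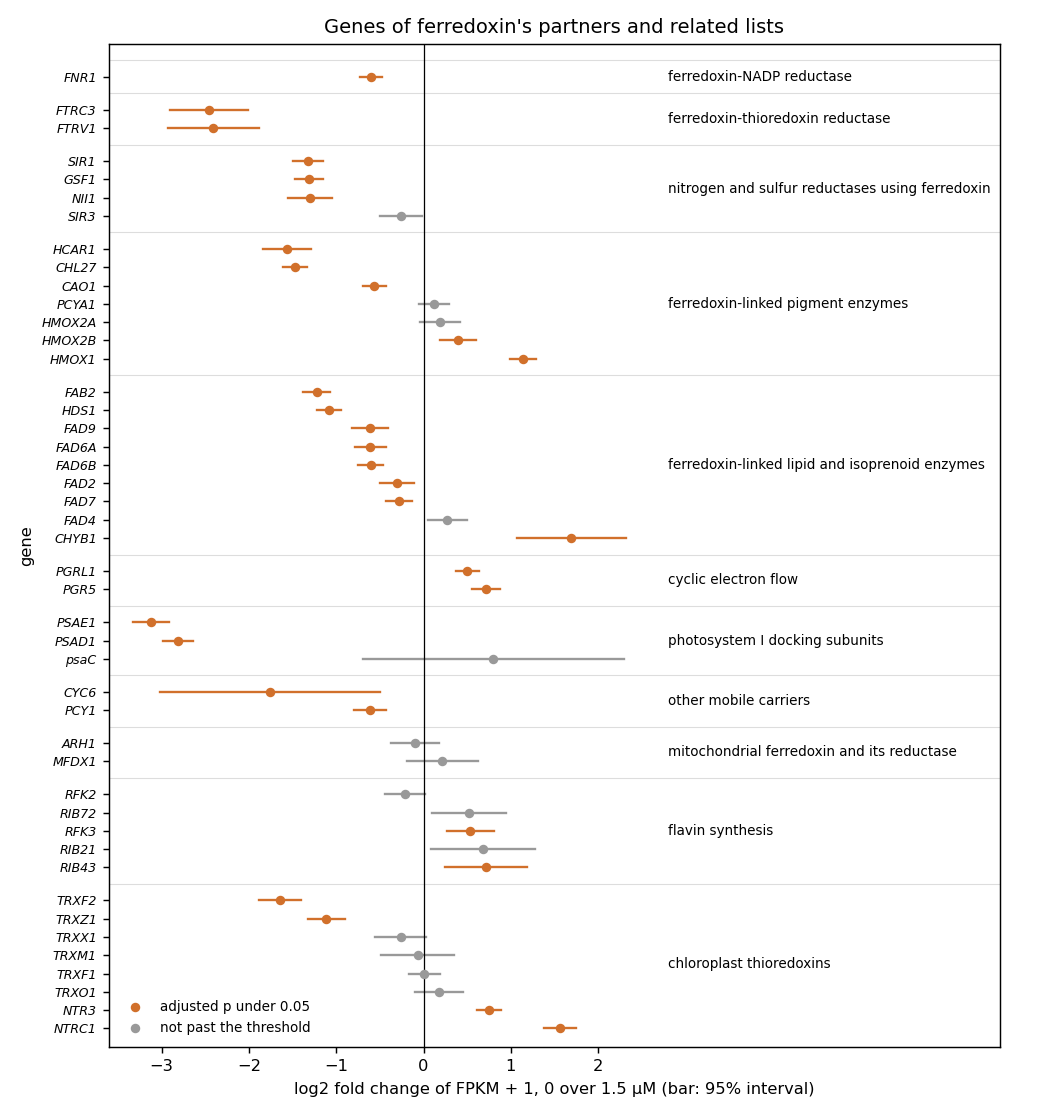
Log2 fold change of FPKM + 1, 0 over 1.5 µM, with its 95% interval for each of the 45 genes in the lists of partners, grouped by list (orange, limma adjusted p under 0.05; grey, not past the threshold). Points left of the line at 0 are lower without added iron; the ferredoxin-thioredoxin reductase genes and PSAD1 and PSAE1 lie farthest left, and NTRC1, HMOX1, CHYB1 and the cyclic flow genes lie to the right.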

How the data were processed

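RNA from 6 libraries was measured, in 2 groups set by the labelled iron level. The authors deposited 1 FPKM value per gene and library, from single-end reads of 50 nt placed on their own assembly, per the design text; STAR 2.4.0j and Cuffdiff 2.0.2 are named in the submitters' processing notes. Names, positions and coding lengths come from the deposited annotation, which names 3449 of the 14354 genes.

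No count model fits FPKM, so none was run. Low values crowded on steps (10.0% to 32.6% of them in a single bin 1% wide, where an even spread gives 0.432%), but the length behind them is not known, so whole reads were not recovered. Precision is judged from the spread between flasks. The sources used here do not say whether flasks shared a preculture.

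Values were taken as log2(FPKM + 1), a scale that understates changes of low genes, for genes with a mean of at least 1 FPKM. Testing used limma 3.58.1 (lmFit, then eBayes with trend; R 4.3.3), two-sided, with Benjamini-Hochberg adjustment over all 11273 genes. On simulated data with 200 genes changed the fit recovered fewer of the smaller changes than of the larger ones. That setting differs from the data, in which 3408 genes were called. Apart from the simulation, a gene that did not pass is not shown to be unchanged. Sums and ratios were compared with exact permutation tests in scipy 1.17.1. The members and gene lists were chosen with earlier results of these data known. Named are all members, their neighbours, the 5 genes most like FLD1 and FDX1A, FOX1 and TIDI1, and all genes of each partner list, or the 4 with the smallest p where it holds over 6. HMOX2B, CHYB1, FAD2 and the cell type markers are named beyond this rule, and neighbours that did not pass are mostly given as a count.

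Deviations from the level means correlated at 0.24, 0.26 and 0.17 between libraries of the same replicate number, which pairs the libraries by the data, not the labels. The tests reported do not use the pairing; the replicate block is an alternative, given beside each result whose call it changes. Alternatives were pseudocounts of 0.1 and 0.01, no filter, a filter of 5 FPKM, 3 scalings, the replicate block, eBayes without trend, leaving out each library, and replicates 1 and 2 only.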

Additional observations from a re-analysis of the deposited data

How the results depend on the processing

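Over 16 alternatives FLD1 stayed between 9.37 and 9.71 and FDX1A between -3.85 and -3.57 on the log2 scale, both called each time, as were FDX1B, FDX4, FDX6 and FDX11. FDX7 was lost in the 2 settings given above. With the sums set equal 3189 genes were higher and 1086 lower, 16 partner genes rose, 4 each in the thioredoxin, pigment and flavin lists and 2 in the lipid list, and the summed FPKM was 1.59-fold higher without iron; under quantile normalization it was 1.58-fold higher, the FLD1 share without iron was 93.5%, and 0 reductase genes (FNR1) and 1 mobile carrier fell. In the lipid list 2 also rose by median ratios and under quantiles. With no filter 1 flavin gene rose and 1 carrier fell, as 1 carrier did without the trend. With replicates 1 and 2 only 1685 genes changed, 549 higher and 1136 lower; 0 lipid, 0 flavin, 1 pigment and 1 photosystem I gene rose and 1 carrier fell. With 1 library left out between 795 and 1288 genes were higher, the fewest without 0 µM replicate 2 and without 1.5 µM replicate 3 (855), and 0 to 4 flavin, 1 to 2 pigment and 1 to 2 lipid genes rose and 1 to 2 carriers fell.

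Directions turned for values that had not passed the test, and for FNR1, which had: FDX8 (0.029 by median ratios, 0.19 with equal sums, 0.031 with replicates 1 and 2 only, and from -0.093 to 0.056 with 1 library left out), FDX3 (0.11 with equal sums), FNR1, the only gene of its list (0.10 under quantiles), ARH1 (0.091 with equal sums, and from -0.170 to 0.000103 with 1 library left out), RFK2 (0.0076 with equal sums), and the neighbours ATF1 (0.019 by median ratios, 0.19 with equal sums, -0.074 to 0.015 with 1 library left out), Dte_g01342, ERV1A and PF22 (0.11, 0.064 and 0.055 with equal sums), ERV1A and Dte_g06555 with replicates 1 and 2 only (0.015 and -0.039) and Dte_g06555 with 1 library left out (-0.0093 to 0.17). So did the median of all genes (0.014 by median ratios, 0.016 under quantiles, 0.17 with equal sums), of the thioredoxin list (0.022, 0.049 and 0.20 in the same order, 0.047 with replicates 1 and 2 only, -0.11 to 0.017 with 1 library left out) and of the mitochondrial list (-0.019 to 0.16 with 1 library left out); the cause was not tested. With the replicate block 3973 genes changed (1611 higher, 2362 lower), in place of 3408 (1303 and 2105). FLD1 was then at 9.49, and besides SIR3, RIB21, RIB72, ARL4, Dte_g12524 and Dte_g05352 it changed no call among the genes named.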
